A study of Mus musculus with 22 samples.

Results

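The genes of fatty acid oxidation and the target genes of the nuclear receptor PPARα were followed in 22 MYC-driven mouse liver tumours. They are 43 genes taken by symbol from a list of the enzymes and carriers that burn fatty acids in mitochondria and peroxisomes and of the classical PPARα targets of liver. All 43 were present in both deposited tables, which held 24063 genes for a first set of 12 tumours and 24019 genes for a second set of 10 tumours. All 43 also passed the filter on low values in both sets. Cyp4a10, Cyp4a14 and Cyp4a12a had values under the filter minimum of 10 in some tumours of each set and passed through the tumours where they were high.

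Fatty acids are broken down by β-oxidation, which shortens the carbon chain step by step and yields acetyl-CoA. Mitochondria take in long chains through the carnitine shuttle and burn them for energy or for ketone bodies, while peroxisomes shorten very long and branched chains. PPARα is a fatty acid sensor that pairs with the retinoid X receptor (RXR) on DNA and raises this whole programme in fasted liver, together with microsomal ω-hydroxylases of the Cyp4a family and secreted factors such as Fgf21 and Angptl4.

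The tumours were raised in C57BL/6 mice by hydrodynamic injection into the tail vein, which drives plasmids into hepatocytes, and the animals were otherwise untreated. Every tumour carried MYC, so MYC was shared by all groups, and the second driver was named in the genotype labels as p53, which stands for loss of p53, or as β-catenin (bcat in set 1, CTNNB1 in set 2). Each pair was joined with luciferase (luc) or with lucOS, luciferase that also carries model antigen peptides. In set 1 the p53 tumours were 3 with luc and 3 with lucOS, and the β-catenin tumours 4 with luc and 2 with lucOS. Set 2 held 4 p53 tumours, all with lucOS, and 6 β-catenin tumours, 3 with each construct. The labels give no age and no construct sequence, and they do not say whether tumours came from separate animals, so the p-values measure the spread between tumour samples.

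Reads over genes ran from 33706072 to 54872646 per tumour in set 1 and from 33550553 to 50116323 in set 2. Trp53, the gene of p53, separated the drivers in each set, at 1423 to 2280 in p53 and 3296 to 4994 in β-catenin tumours of set 1 and at 1345 to 2223 and 2631 to 4405 in set 2. Ctnnb1, the gene of β-catenin, overlapped between the drivers. It stood at 22214 to 29241 in p53 and 15489 to 22465 in β-catenin tumours of set 1. In set 2 it stood at 23510 to 35645 and 24223 to 25938. Myc overlapped too, at 54.31 to 397 and 82.85 to 557 in set 1 and 68.45 to 130 and 62.58 to 375 in set 2. The Ctnnb1 and Myc values are of the mouse genes. With no construct sequence given, it is not known whether reads of injected MYC and β-catenin were counted in them. Of 10 hepatocyte markers 9 were matched, and none of those was at 0 in every tumour of any group. Their summed value was 568793 to 847753 in the p53 and 1082770 to 1414060 in the β-catenin tumours of set 1, without overlap, and 365763 to 606265 and 360212 to 1111010 in set 2, with overlap. Kidney tubule markers, of which Kap was at 0 in every tumour, summed to 692 to 11854 in p53 against 505 to 1032 in β-catenin tumours of set 1 and to 5920 to 14617 against 802 to 3808 in set 2. T cell markers summed to 152 to 707 against 68.0 to 173 in set 1 and to 362 to 865 against 64.9 to 212 in set 2. The fat cell markers summed to 1615 to 2845 against 1183 to 8088 in set 1 and to 2078 to 4097 against 2272 to 7501 in set 2. Of these 8 markers, only the fat cell hormone gene Lep was at 0 in all 22 tumours. Neutrophil markers summed to 409 to 2541 against 89.0 to 609 in set 1 and to 365 to 1227 against 116 to 344 in set 2. The drivers did not overlap in set 2 for neutrophil, kidney tubule and T cell sums. Bile duct markers (1744 to 16703 against 187 to 4377 in set 1, 1553 to 7888 against 734 to 3279 in set 2), muscle markers (133 to 6045 against 21.5 to 464 and 474 to 2834 against 77.9 to 684) and endothelial markers (2289 to 11226 against 3700 to 14830 and 5872 to 8466 against 2675 to 6100) overlapped in both sets, as did the sums for macrophages, B cells, stellate cells and red blood cells. The part of these cell types in the differences below was not tested, and in bulk tissue fewer cells of a type and less RNA per cell cannot be told apart. Tumours are numbered here within their group in the order of deposit, as the labels carry no replicate numbers. In set 2 the names of p53 tumours 1 to 3 begin with AL, and those of p53 tumour 4 and of all 6 β-catenin tumours begin with JAX. Driver and name prefix thus run nearly together in set 2. A driver difference of set 2 cannot be told apart from one between the prefixes, also where a call held on leaving out each tumour.

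Values are reads divided by a size factor for each tumour, as the authors deposited them, and a difference is the gap between group means of log2(value + 1), which understates the change of very low genes. Calls required an adjusted p below 0.05 in limma (Benjamini-Hochberg over all genes tested in the set). The called genes of this group were nearly all higher in β-catenin than in p53 tumours, from the carnitine shuttle through mitochondrial and peroxisomal enzymes to the Cyp4a hydroxylases. Among luc tumours 26 of the 43 were called higher with β-catenin and 0 lower, where 5.93% of all 16108 genes tested were called higher and 9.16% lower. Among lucOS tumours 7 were called higher and 0 lower in set 1, against 1.62% and 2.59% of all genes, and in set 2 it was 13 higher and 1 lower, against 6.08% and 10.9% of 15625 genes. Their median log2 difference was 1.38, 1.04 and 0.79 in these 3 comparisons, beside -0.20, -0.15 and -0.16 over all genes tested. With TMM scaling the median of all genes moved to -0.01, 0.00 and -0.01, and the genes called higher and lower went from 956 and 1475 to 1228 and 685 (luc), from 261 and 417 to 326 and 202 (lucOS, set 1) and from 950 and 1706 to 1287 and 1059 (lucOS, set 2). The members called higher with TMM were 30, 8 and 15, where 7.62%, 2.02% and 8.24% of all genes were called higher. On the recovered reads edgeR called 26, 8 and 16 members higher (6.89%, 1.82% and 8.55% of all genes) and DESeq2 34, 23 and 23 (11.8%, 6.56% and 13.8%). Above 0 lay 42, 42 and 38 of the 43 genes, where 39.0%, 41.4% and 38.9% of all genes did, and 38 members did so in all 3 comparisons, as did 22.1% of 15378 genes tested in both sets.

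**Figure D1:**
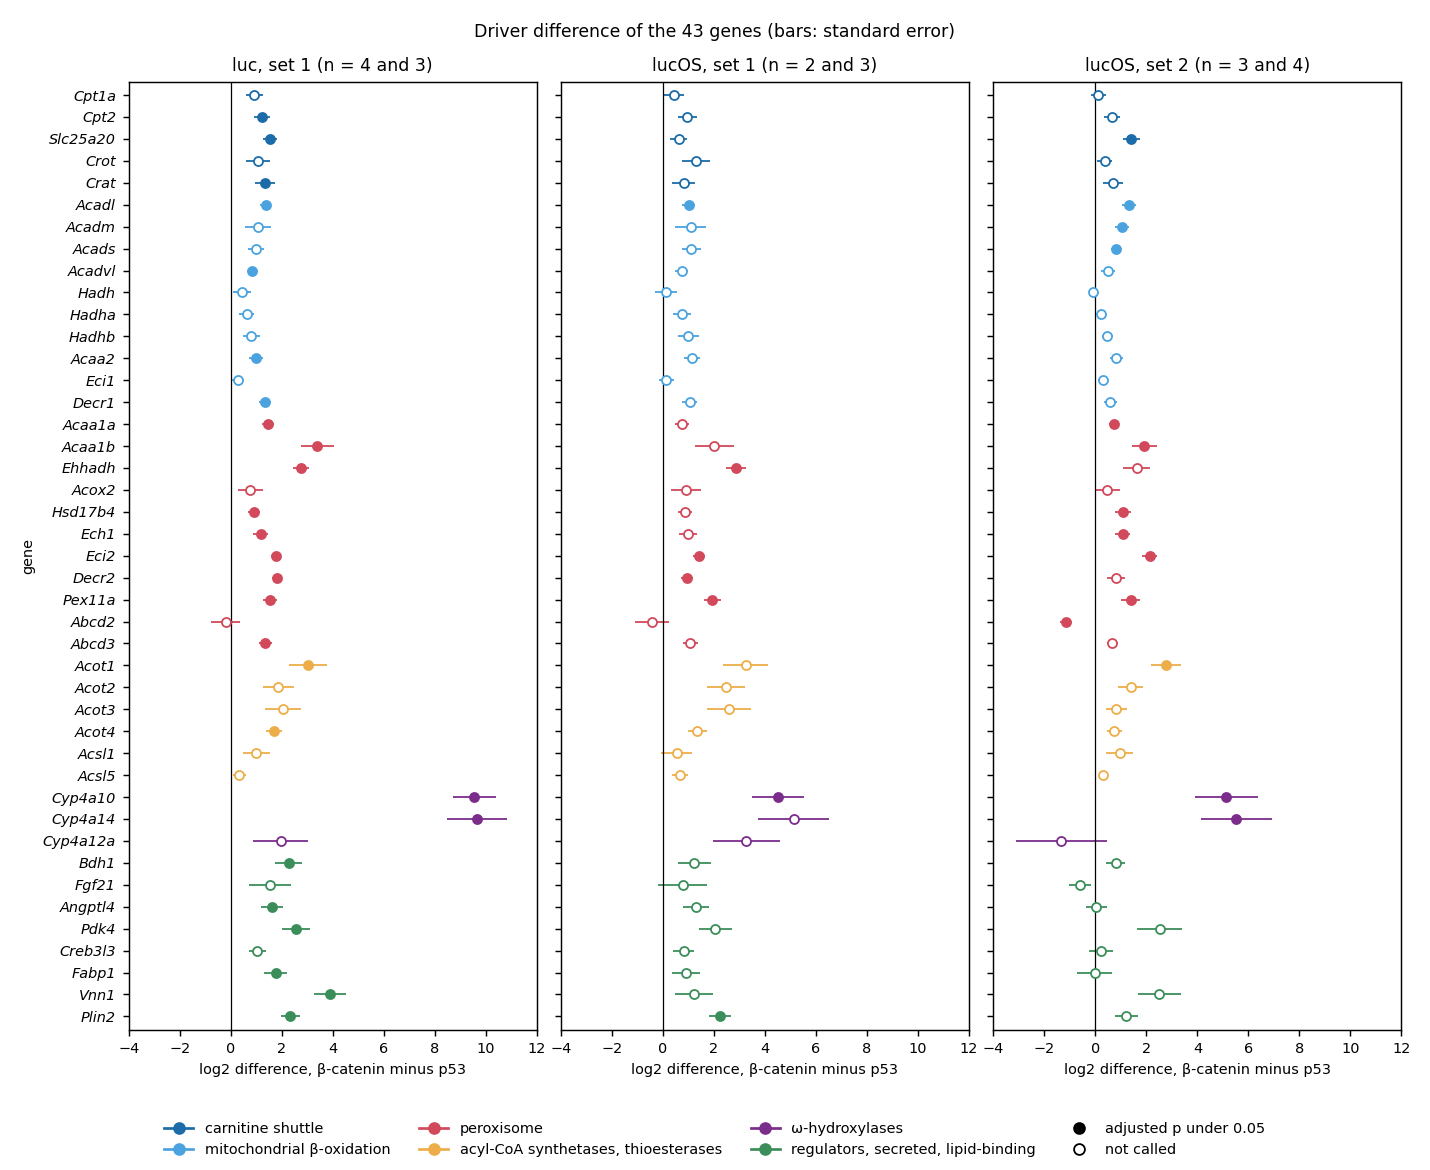
Log2 difference between β-catenin and p53 tumours (horizontal axis, points with standard errors) for the 43 genes (rows, coloured by role) in the 3 driver comparisons, with filled points for called genes (adjusted p below 0.05). Filled points number 26 in the luc panel, 7 in the lucOS panel of set 1 and 14 in the lucOS panel of set 2, and Cyp4a10 and Cyp4a14 lie farthest to the right in each panel.

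These counts depended on single tumours. The 26 calls among luc tumours became 15 without p53 tumour 1, 17 without p53 tumour 2 and 16 without β-catenin tumour 3. In the same fits all genes called higher fell from 956 to 471, 489 and 559. Of the 26, 15 were called in all 7 fits that left out 1 tumour. The 7 lucOS calls of set 1 became 3 without p53 tumour 1 and 1 without either β-catenin tumour, so 0 of them held in all 5 such fits. All genes called higher fell from 261 to 93 without that p53 tumour, and to 40 and 29 without β-catenin tumours 1 and 2. In the fit of these 2 groups alone, Ehhadh was the 1 member called, where 11 of all 15519 genes were called higher. The 13 higher calls of set 2 became 5 without p53 tumour 1, 8 without p53 tumour 2, 3 without p53 tumour 3 and 3 without β-catenin tumour 3. In these fits all genes called higher fell from 950 to 506, 715, 474 and 447. Among the tumours of set 2 named JAX, where p53 tumour 4 is the only p53 tumour and is assumed to vary like the others, 0 of 42 members tested were called (of all 15083 genes 21 were called higher and 2 lower), 3 had an unadjusted p under 0.05 (Acads, Acot1 and Eci2), and their median log2 difference was 0.26.

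Separation tumour by tumour was counted as well. All β-catenin tumours lay above all p53 tumours for 28 members among luc tumours (10.9% of all genes), 32 in lucOS set 1 (13.5%) and 15 in lucOS set 2 (10.3%). The reverse order was seen for 0, 0 and 2 members (23.2%, 24.3% and 22.5% of all genes), the 2 being Abcd2 and Fgf21. In all 3 comparisons 13 members were separated in the higher direction, as were 3.77% of the genes tested in both sets.

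The carnitine shuttle carries long chains across the mitochondrial membranes. Slc25a20, its inner membrane translocase, had values of 1213, 1021 and 2269.7 in luc p53 and 2935, 4983, 4416 and 4636 in luc β-catenin tumours of set 1, and of 2657, 3444 and 3111 and 4177 and 5269 in their lucOS counterparts. In set 2 it stood at 1190.1, 1997, 1054 and 2354 in lucOS p53, 4647, 2843 and 5294 in lucOS β-catenin and 6124, 5431 and 3858 in luc β-catenin tumours. The groups did not overlap in any of the 3 comparisons. Slc25a20 was called among luc tumours, with a log2 difference of 1.56 ± 0.28 (SE, adjusted p = 0.00614), and in set 2, with 1.40 ± 0.33 (SE, adjusted p = 0.021), but not among lucOS tumours of set 1, with 0.62 ± 0.33 (SE, adjusted p = 0.282). The set 2 call was lost without p53 tumour 1 or 3 or without β-catenin tumour 1 or 3 (adjusted p up to 0.0718).

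Cpt1a, the enzyme of the outer membrane that controls entry into the shuttle, was not called in any comparison. It had 10264, 7653 and 18894 in luc p53 and 16596, 23114 and 10964 in lucOS p53 tumours of set 1. The β-catenin tumours of that set had 17490.5, 23444, 24573 and 22306 with luc and 26414 and 17647 with lucOS. In set 2 its values were 11511, 18186, 17167 and 19909 in lucOS p53, 11659, 23557 and 13444 in luc β-catenin and 14324, 15839.8 and 24137 in lucOS β-catenin tumours. The groups overlapped in all 3 driver comparisons, whose log2 differences were 0.93 ± 0.33 (SE), 0.42 ± 0.39 (SE) and 0.11 ± 0.29 (SE). Cpt2, which hands the chain back to CoA inside the mitochondrion, and Crat, which moves acetyl groups, were called higher among luc tumours (1.22 ± 0.31 (SE, adjusted p = 0.028) and 1.36 ± 0.39 (SE, adjusted p = 0.0387)). The call was lost in 5 of 7 fits that left out a tumour for Cpt2 (adjusted p up to 0.102) and in 6 of 7 for Crat (up to 0.136). Crot, the peroxisomal octanoyltransferase, was not called, with differences of 1.07, 1.28 and 0.37.

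Among the mitochondrial β-oxidation enzymes, Acadl, the long-chain acyl-CoA dehydrogenase (chr1:66830839-66863277, minus strand, mm10), was called higher in all 3 comparisons. It stood at 2972, 3658 and 3727 in luc p53 and 3369.7, 4949.6 and 6243 in lucOS p53 tumours, against 10983, 8390.3, 8902 and 7744 in luc β-catenin and 9419.8 and 9396 in lucOS β-catenin tumours of set 1. In set 2 the values were 2826, 3797, 2934 and 3941 in lucOS p53, 11340.3, 10426 and 6148 in luc β-catenin and 6913, 6855 and 11939 in lucOS β-catenin tumours. Every β-catenin tumour exceeded every p53 tumour of its set. The log2 differences were 1.38 ± 0.21 (SE, adjusted p = 0.00296) for luc, 1.0 ± 0.25 (SE, adjusted p = 0.049) for lucOS in set 1 and 1.31 ± 0.27 (SE, adjusted p = 0.0139) for lucOS in set 2. The call of the lucOS tumours of set 1 was lost in 4 of the 5 fits that left out a tumour (p53 tumours 1 and 2, β-catenin tumours 1 and 2, adjusted p up to 0.187), with a pseudocount of 5, without the filter, with transcripts summed and in the fit of the 2 groups alone.

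Acadm, the medium-chain acyl-CoA dehydrogenase, varied more between tumours. It had 10634, 4646 and 11677 in luc p53, 13496, 22933 and 5607 in lucOS p53, 8580.4, 25258, 22318 and 20174 in luc β-catenin and 23314 and 27977 in lucOS β-catenin tumours of set 1, where p53 lucOS tumour 2 lay above luc β-catenin tumours 1, 3 and 4. In set 2 it had 7506, 10559.7, 10051 and 12031 in lucOS p53, 29209, 28332 and 16415 in luc β-catenin and 18577, 16147 and 28889 in lucOS β-catenin tumours, with no overlap between the drivers. Its log2 differences in the 3 comparisons were 1.09 ± 0.51 (SE), 1.09 ± 0.61 (SE) and 1.05 ± 0.27 (SE), and it was called only in the last (adjusted p = 0.0287), a call lost without p53 tumour 1, 2 or 3 or β-catenin tumour 3.

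The remaining mitochondrial enzymes carry out the other steps of the cycle. Acadvl and Acads, the very-long-chain and short-chain dehydrogenases, had differences of 0.85, 0.73 and 0.50 and of 1.0, 1.10 and 0.79. Acadvl was called among luc tumours (adjusted p = 0.0279) and Acads in set 2 (0.0261). Acaa2, the mitochondrial thiolase, and Decr1, which helps to degrade unsaturated chains, were called among luc tumours (0.99 ± 0.26 (SE, adjusted p = 0.0307) and 1.35 ± 0.24 (SE, adjusted p = 0.00584)). On leaving out a tumour the luc calls of Acadvl and Acaa2 were each lost in 5 of 7 fits (adjusted p up to 0.105 and 0.115), the set 2 call of Acads in 2 of 7 (up to 0.083) and that of Decr1 in 0 of 7. Hadha and Hadhb, the subunits of the trifunctional protein, were not called in any comparison, with differences from 0.22 to 0.98. Hadh, the short-chain hydroxyacyl-CoA dehydrogenase, and Eci1, an isomerase for unsaturated chains, were not called either and stayed between -0.12 and 0.43. Over the 10 enzymes the median difference was 0.92, 0.99 and 0.54, with 4, 1 and 3 called higher (5.93%, 1.62% and 6.08% of all genes) and 0 called lower.

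Peroxisomal β-oxidation has its own set of enzymes and importers. Of 11 such genes, 9 were called higher among luc tumours (5.93% of all genes), 4 among lucOS tumours of set 1 (1.62%) and 6 in set 2 (6.08%), with medians of 1.46, 0.97 and 1.06. Eci2, an isomerase that readies unsaturated chains for β-oxidation (chr13:34977748-35027096, minus strand, mm10), had values of 3445, 2681 and 3468 in luc p53, 5429, 3618 and 5625 in lucOS p53, 9574, 11256, 12198 and 10327 in luc β-catenin and 11093 and 14375 in lucOS β-catenin tumours of set 1. The tumours of set 2 had 1870.0, 2628, 1989 and 3889 in lucOS p53 against 7092, 11984 and 9090.3 in luc and 10228, 15237 and 8109 in lucOS β-catenin tumours. The lowest β-catenin tumour lay above the highest p53 tumour in both sets. The log2 differences of Eci2 were 1.76 ± 0.19 (SE, adjusted p = 0.000513), 1.40 ± 0.23 (SE, adjusted p = 0.0152) and 2.12 ± 0.30 (SE, adjusted p = 0.0042), and the only call lost on leaving out a tumour was that of set 1 lucOS without β-catenin tumour 2 (adjusted p = 0.0954).

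Pex11a, a membrane protein that elongates and divides peroxisomes (chr7:79735957-79743131, minus strand, mm10), was the other peroxisomal gene called higher in all 3 comparisons. Its values were 496, 808 and 509.6 in luc p53 and 888, 900.1 and 610.2 in lucOS p53 tumours of set 1. In β-catenin tumours it had 1203, 1722, 2488 and 1628 with luc and 2713 and 3314 with lucOS. In set 2 the values were 264, 469, 503 and 587 in lucOS p53, 2522, 1614 and 1028 in luc β-catenin and 1395, 732 and 1455 in lucOS β-catenin tumours. The drivers did not overlap within a set. The log2 differences were 1.53 ± 0.27 (SE, adjusted p = 0.00652), 1.93 ± 0.33 (SE, adjusted p = 0.0162) and 1.38 ± 0.38 (SE, adjusted p = 0.0361), and the lucOS calls were lost without either β-catenin tumour of set 1 (adjusted p up to 0.0986) and without p53 tumour 1, 2 or 3 or β-catenin tumour 1 or 3 of set 2 (up to 0.113).

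Ehhadh, the bifunctional hydratase and dehydrogenase of the classical PPARα-driven peroxisomal pathway, had the largest difference of the 11 among lucOS tumours of set 1. It had 1569.7, 1034 and 1509 in luc p53, 1680.4, 2253 and 1671 in lucOS p53, 5403, 8622, 17277 and 8613 in luc β-catenin and 15741 and 11304 in lucOS β-catenin tumours. Set 2 gave 1024, 2433, 1227 and 2503 in lucOS p53, 17512, 10018 and 5013 in luc β-catenin and 3938, 3338 and 10034 in lucOS β-catenin tumours. The drivers did not overlap in any of the 3 comparisons, and the log2 differences were 2.76 ± 0.33 (SE, adjusted p = 0.000884), 2.85 ± 0.40 (SE, adjusted p = 0.00828) and 1.61 ± 0.52 (SE, adjusted p = 0.0592), the last not called. The lucOS call of set 1 was lost without β-catenin tumour 1 (adjusted p = 0.0506).

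Hsd17b4 is the bifunctional enzyme that handles branched chains and bile acid precursors. It stood at 7009, 7100.1 and 9869.7 in luc p53 and 11542, 10394 and 7549 in lucOS p53 tumours of set 1. The β-catenin tumours of that set had 10284, 18039, 16155 and 16903 with luc and 17351 and 17596 with lucOS. Its set 2 values were 4052, 7812, 6253 and 9341 in lucOS p53, 19880.4, 20371 and 14054 in luc β-catenin and 12398, 10478 and 20665 in lucOS β-catenin tumours. The 3 comparisons showed no overlap, and the differences were 0.93 ± 0.23 (SE, adjusted p = 0.024), 0.85 ± 0.27 (SE, adjusted p = 0.0946) and 1.08 ± 0.31 (SE, adjusted p = 0.042). Of its calls, that of luc was lost in 5 of 7 fits that left out a tumour and that of set 2 also in 5 of 7 (adjusted p up to 0.0914 and 0.135).

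The peroxisomal thiolases Acaa1a and Acaa1b cut off acetyl-CoA at the end of each round. Acaa1b had 1955, 1131 and 5805 in luc p53, 14205, 10939 and 4194 in lucOS p53, 11315, 20706, 48928 and 32174 in luc β-catenin and 56441 and 21727 in lucOS β-catenin tumours of set 1. In set 2 it had 2827, 3086, 2923 and 8260.1 in lucOS p53, 42151, 30227 and 17653 in luc β-catenin and 18076, 7269 and 22855 in lucOS β-catenin tumours, and p53 tumour 4 lay above β-catenin lucOS tumour 2. Its differences were 3.39 ± 0.65 (SE, adjusted p = 0.00886), 2.01 ± 0.78 (SE, adjusted p = 0.148) and 1.92 ± 0.50 (SE, adjusted p = 0.0293). Acaa1a had 2816, 1995 and 3280.4 in luc p53 and 3504, 5041 and 2892 in lucOS p53 tumours of set 1. In β-catenin tumours it had 6108, 6923, 8706 and 7671 with luc and 6121 and 6399.7 with lucOS. In set 2 Acaa1a had 3214, 3128, 3063 and 3339, a narrow range, in lucOS p53, 7663, 7469 and 6182 in luc β-catenin and 5066, 4093 and 6795 in lucOS β-catenin tumours. Its differences were 1.46 ± 0.23 (SE, adjusted p = 0.0032), 0.75 ± 0.27 (SE, adjusted p = 0.123) and 0.71 ± 0.17 (SE, adjusted p = 0.0228), with no overlap in any comparison. The set 2 calls were lost without p53 tumour 1 or 3 or β-catenin tumour 3 for both genes, and for Acaa1b also without p53 tumour 2 or β-catenin tumour 1 (adjusted p up to 0.099). The genes are close copies, and how their reads were shared out is not stated, so their separate values are uncertain.

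Ech1 and Decr2 process double bonds. Ech1 had 4330.3, 6658 and 8416 in luc p53, 13522, 9957 and 6622 in lucOS p53, 9857, 17007, 15082 and 16052 in luc β-catenin and 16904 and 20989 in lucOS β-catenin tumours of set 1. Set 2 had 3846, 8159, 4726 and 6957 in lucOS p53, 19102, 17469.8 and 12503 in luc β-catenin and 11874, 8961 and 15618 in lucOS β-catenin tumours. Within each comparison the drivers did not overlap, and Ech1 differed by 1.19 ± 0.30 (SE, adjusted p = 0.0245), 0.97 ± 0.35 (SE, adjusted p = 0.129) and 1.06 ± 0.29 (SE, adjusted p = 0.035). Decr2, the peroxisomal dienoyl-CoA reductase, had 1253, 979 and 1133 in luc p53 and 1493, 2155 and 1999 in lucOS p53 tumours of set 1. The β-catenin tumours of that set had 3412, 4122, 4199.9 and 4131 with luc and 2963 and 4319 with lucOS. In set 2 Decr2 had 1255, 1654, 1508 and 1346 in lucOS p53, 4104, 3402 and 2388 in luc β-catenin and 2360.0, 1401 and 4614 in lucOS β-catenin tumours, where lucOS β-catenin tumour 2 fell among the p53 tumours. Decr2 differed by 1.82 ± 0.19 (SE, adjusted p = 0.000367), 0.94 ± 0.23 (SE, adjusted p = 0.0455) and 0.79 ± 0.35 (SE, adjusted p = 0.14), so it was called in set 1 alone. Leaving out p53 tumour 1 or 3 or either β-catenin tumour ended the lucOS call of Decr2 (adjusted p up to 0.249), and 5 of 7 such fits ended the luc call of Ech1 and 4 of 7 its set 2 call (up to 0.101 and 0.114).

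Of the peroxisomal importers, Abcd3, which takes up long and branched chains, was called higher among luc tumours (1.36 ± 0.25 (SE, adjusted p = 0.0069)). Abcd2, the transporter of very long chains, was the only member called lower in a driver comparison. In set 2 its values were 5836, 4569, 4260.3 and 3399 in lucOS p53 and 1787, 2706 and 1649 in lucOS β-catenin tumours, without overlap, while luc β-catenin tumours had 4170.1, 3882 and 5626, within the p53 range. The set 2 difference was -1.15 ± 0.23 (SE, adjusted p = 0.0134) and was called in all 7 fits that left out a tumour. In set 1 the groups overlapped, at 2458, 1273 and 3563 in luc p53, 4702, 5615 and 1864 in lucOS p53, 1171, 2989, 1144 and 3556 in luc β-catenin and 1768 and 4183 in lucOS β-catenin tumours, with differences of -0.20 ± 0.55 (SE) and -0.43 ± 0.66 (SE) that were not called. Acox2, an oxidase of branched chains and bile acid precursors, was not called, with 0.78, 0.90 and 0.46.

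Set side by side, the 14 peroxisomal members (the 11 above with Crot, Acot3 and Acot4) had median differences of 1.5 (luc), 1.17 (lucOS, set 1) and 0.80 (lucOS, set 2). The 16 mitochondrial members (the 10 β-oxidation enzymes with Cpt1a, Slc25a20, Cpt2, Crat, Acot2 and Bdh1) had 1.04, 0.97 and 0.67. Each of these genes was placed in 1 compartment only, a choice on which the medians rest. Called higher were 10, 4 and 6 of the peroxisomal and 8, 1 and 4 of the mitochondrial genes, against the same shares of all genes. The gap between the compartments was not tested, because the genes share tumours. The peroxisomal median was the higher in each of the 17, 15 and 17 settings run for the 3 comparisons, by 0.22 to 0.63 (luc), 0.16 to 0.39 (lucOS, set 1) and 0.13 to 0.38 (lucOS, set 2).

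**Figure D2:**
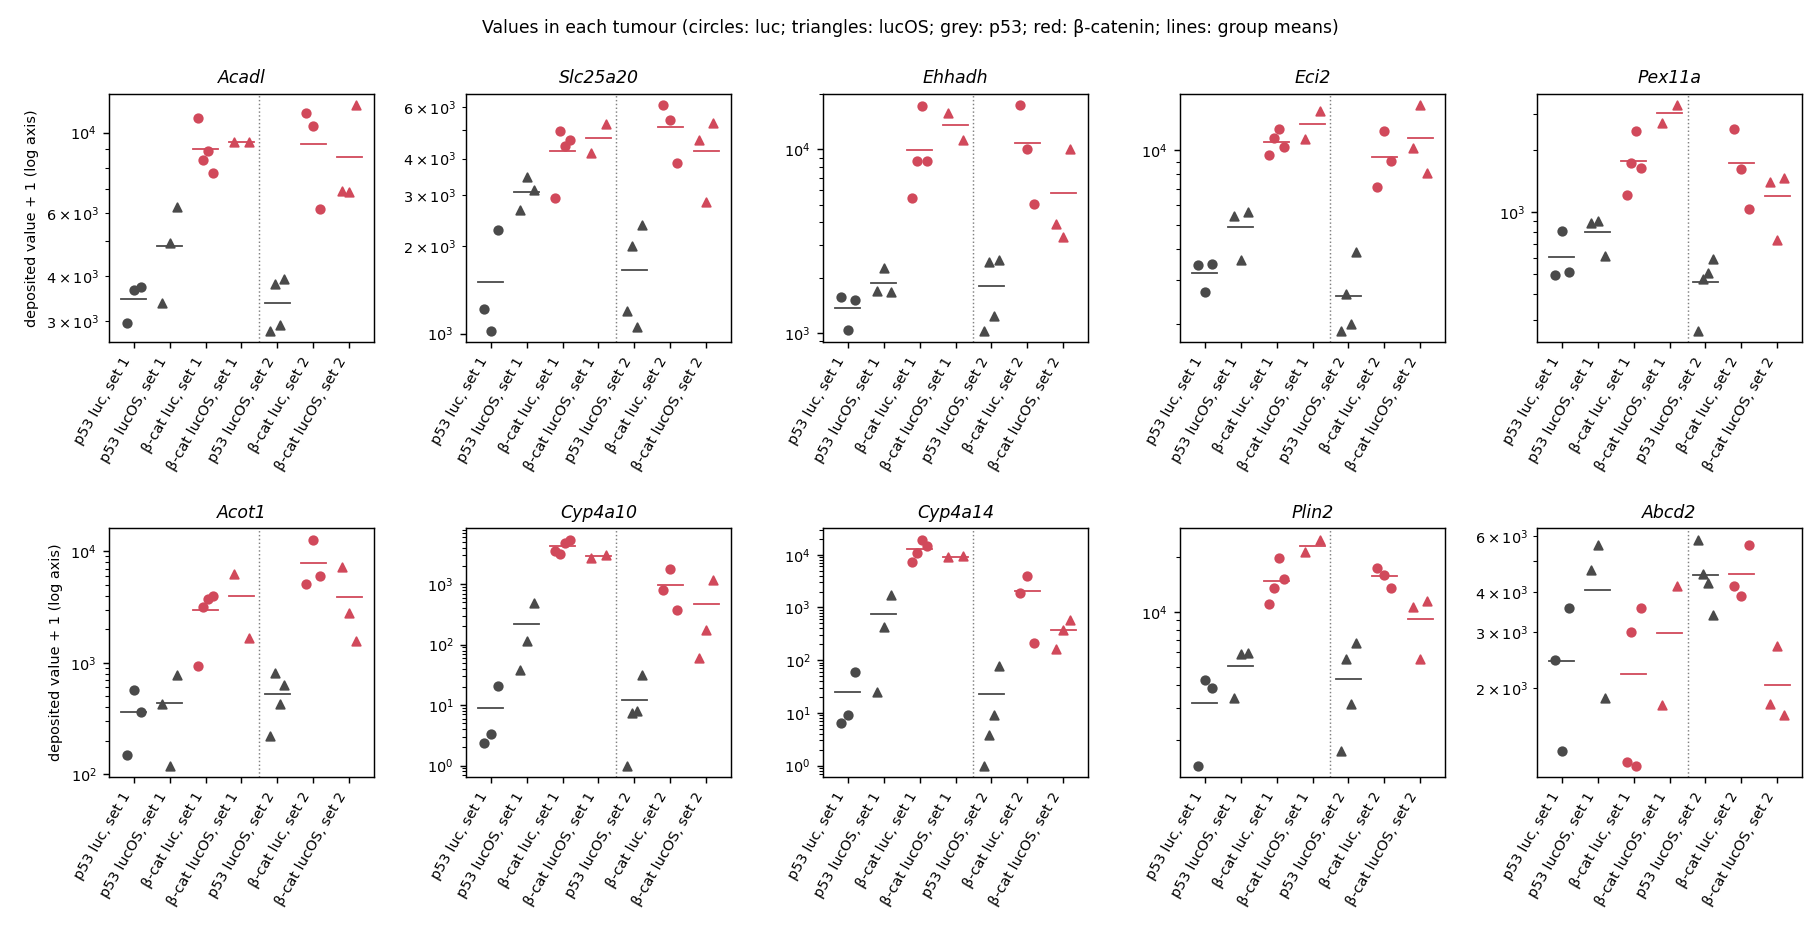
Deposited value plus 1 (log axis) of 10 of the genes in each tumour, by group, with circles for luc, triangles for lucOS, grey for p53, red for β-catenin and lines at group means. The dotted line divides set 1 from set 2, whose levels were scaled separately, and Abcd2 is the gene whose lucOS β-catenin tumours lie below the p53 tumours in set 2.

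Acyl-CoA synthetases activate fatty acids, and acyl-CoA thioesterases release them again. The thioesterase genes Acot1 (cytosol), Acot2 (mitochondria), Acot3 and Acot4 (peroxisomes) lie next to each other on chromosome 12. Acot1 (chr12:84009490-84018371, plus strand, mm10) had 147, 565 and 363 in luc p53, 429.9, 118 and 768 in lucOS p53, 941, 3149, 3699.6 and 4002 in luc β-catenin and 6211 and 1654 in lucOS β-catenin tumours of set 1. Values of set 2 were 221, 808, 426 and 631 in lucOS p53, 5069, 12719 and 5966 in luc β-catenin and 7276, 2788 and 1573 in lucOS β-catenin tumours. All β-catenin tumours lay above all p53 tumours of their set. The log2 differences were 3.04 ± 0.75 (SE, adjusted p = 0.023), 3.23 ± 0.89 (SE, adjusted p = 0.0638) and 2.76 ± 0.58 (SE, adjusted p = 0.0151), and the set 2 call held in all 7 fits that left out a tumour, while dropping p53 tumour 1 or β-catenin tumour 2, 3 or 4 ended the luc call (adjusted p up to 0.0956). Acot4 was called among luc tumours (1.71 ± 0.31 (SE, adjusted p = 0.00693)). Acot2 and Acot3 were not called, with differences of 1.87, 2.46 and 1.38 and of 2.05, 2.60 and 0.82. The copies are similar enough to share reads, so the value of each is uncertain.

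Acsl1, the main acyl-CoA synthetase of liver, and Acsl5 were not called, with differences of 1.0 ± 0.52 (SE), 0.53 ± 0.62 (SE) and 0.95 ± 0.52 (SE) for Acsl1 and of 0.34 ± 0.27 (SE), 0.65 ± 0.32 (SE) and 0.29 ± 0.15 (SE) for Acsl5.

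The promoters of the Acot genes are shown as a cluster of neighbours, and those of Acadl, Eci2 and Pex11a because these genes were called in all 3 comparisons. Cyp4a10, the other member called in all 3, is not in the promoter table. The share of all genes called in all 3 was not counted, and the comparisons of set 1 came from the same fit. Each run covers 250 bases before to 50 bases after the start of transcription in RefSeq (GRCm38.p6), read 5′ to 3′ on the gene's strand. PPARα with RXR binds a DR1 element, 2 copies of AGGTCA with any 1 base between them, and capitals mark a DR1 with at most 2 mismatches on either strand, or an exact ATCAAAG or TTCAAAG, motifs bound by the TCF factors through which β-catenin acts. The windows are chr12:84009252-84009551, chr12:83987611-83987910, chr12:84051894-84052193 and chr12:84038129-84038428 for the Acot genes (plus strand) and chr1:66863260-66863559, chr13:34994095-34994394 and chr7:79743082-79743381 for the others (minus strand).
Acot1: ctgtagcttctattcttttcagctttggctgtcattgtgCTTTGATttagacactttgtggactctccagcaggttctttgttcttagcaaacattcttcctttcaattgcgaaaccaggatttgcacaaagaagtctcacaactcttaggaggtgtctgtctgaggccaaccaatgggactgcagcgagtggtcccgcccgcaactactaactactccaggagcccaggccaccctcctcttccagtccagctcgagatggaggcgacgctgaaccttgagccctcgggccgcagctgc
Acot2: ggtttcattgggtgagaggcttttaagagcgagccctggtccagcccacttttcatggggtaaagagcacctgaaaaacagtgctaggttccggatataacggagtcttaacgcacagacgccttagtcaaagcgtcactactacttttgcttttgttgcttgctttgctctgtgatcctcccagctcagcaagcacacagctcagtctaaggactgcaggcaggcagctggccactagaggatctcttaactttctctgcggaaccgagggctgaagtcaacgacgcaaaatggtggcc
Acot3: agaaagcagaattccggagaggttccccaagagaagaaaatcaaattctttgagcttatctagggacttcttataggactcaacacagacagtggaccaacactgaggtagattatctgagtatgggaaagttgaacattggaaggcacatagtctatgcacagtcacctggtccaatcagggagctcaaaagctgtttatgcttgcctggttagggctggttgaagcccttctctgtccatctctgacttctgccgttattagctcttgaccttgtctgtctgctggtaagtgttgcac
Acot4: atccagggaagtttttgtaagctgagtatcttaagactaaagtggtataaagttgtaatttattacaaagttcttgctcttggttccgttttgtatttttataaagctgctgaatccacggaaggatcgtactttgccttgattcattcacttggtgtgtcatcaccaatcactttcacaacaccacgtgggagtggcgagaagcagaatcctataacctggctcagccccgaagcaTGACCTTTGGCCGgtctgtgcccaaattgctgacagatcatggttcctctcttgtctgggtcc
Acadl: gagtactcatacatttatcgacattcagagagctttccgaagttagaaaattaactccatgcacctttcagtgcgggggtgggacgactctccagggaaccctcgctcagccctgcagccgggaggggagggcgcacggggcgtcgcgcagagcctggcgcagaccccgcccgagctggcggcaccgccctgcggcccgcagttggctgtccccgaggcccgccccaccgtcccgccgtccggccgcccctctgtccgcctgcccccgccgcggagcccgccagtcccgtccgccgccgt
Eci2: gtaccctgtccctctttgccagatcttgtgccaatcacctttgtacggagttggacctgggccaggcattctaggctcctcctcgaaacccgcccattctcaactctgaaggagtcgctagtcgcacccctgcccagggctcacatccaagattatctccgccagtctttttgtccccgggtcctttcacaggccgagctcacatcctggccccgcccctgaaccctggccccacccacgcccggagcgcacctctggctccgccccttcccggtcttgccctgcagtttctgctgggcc
Pex11a: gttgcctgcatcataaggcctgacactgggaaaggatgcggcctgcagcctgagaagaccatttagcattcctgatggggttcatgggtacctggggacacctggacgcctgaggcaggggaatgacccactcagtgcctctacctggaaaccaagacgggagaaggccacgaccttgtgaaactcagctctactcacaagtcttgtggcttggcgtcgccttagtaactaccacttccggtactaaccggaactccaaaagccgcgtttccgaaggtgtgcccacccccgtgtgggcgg

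Acot4 holds a DR1 match at 13 bases before its start, Acot1 holds an ATCAAAG on 1 strand, and the other 5 windows hold neither at these settings. Of the 43 genes, 33 matched the promoter table, with 39 promoters. Acaa2, Hsd17b4, Decr1, Cyp4a10, Cyp4a14, Cyp4a12a, Abcd2, Crat, Angptl4 and Vnn1 did not match it. A DR1 with at most 2 mismatches was found in 6 of the 39 (15.4%), beside 3.86% of all 32851 promoters. With at most 3 mismatches it was found in 14 (35.9%, beside 24.6%). The list was chosen to hold classical PPARα targets, so a higher share of DR1 matches than over all promoters is no result of these tumours. An exact DR1 was found in 0 of the 39 and in 0.0396% of all. ATCAAAG was found in 1 of 39 (2.56%, beside 3.73%) and TTCAAAG in 0 (beside 5.14%), both strands searched. The 6 DR1 matches, as read on the gene's strand, are these.
Fabp1: TGACCTATGGCCT
Acot4: TGACCTTTGGCCG
Plin2: GGACCCCTGACCT
Slc25a20: AGGTGAAAGGTCG
Acox2: AGGACAGAGGTGA
Creb3l3: AGGGGAGAGGTCA

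The Fabp1 match has 1 mismatch and begins 67 bases before the start, on the opposite strand. Of these 6 genes, Slc25a20 and Plin2 were called higher in 2 driver comparisons, Fabp1 and Acot4 in 1, and Acox2 and Creb3l3 in 0. Among all members, with or without a promoter searched, 4 were called higher in 3 driver comparisons, 10 in 2, 14 in 1 and 15 in 0. Whether the matches go with the calls was not tested. A match of letters does not show that a factor binds there.

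The Cyp4a ω-hydroxylases oxidise the far end of fatty acids in the endoplasmic reticulum and lie in a cluster on chromosome 4. Cyp4a10 (chr4:115518264-115533649, plus strand, mm10) had the value 1.36, 2.27 and 20 in luc p53 and 36.6, 114 and 494 in lucOS p53 tumours of set 1. In β-catenin tumours it had 3473, 3149, 4777 and 5441 with luc and 2738 and 3093 with lucOS. In set 2 it had 0, 6.44, 6.96 and 30.9 in lucOS p53, 795, 1774 and 378 in luc β-catenin and 59.7, 172 and 1179 in lucOS β-catenin tumours. The β-catenin tumours lay above the p53 tumours throughout, and within the p53 tumours of set 1 every lucOS tumour lay above every luc tumour. The log2 differences were 9.56 ± 0.85 (SE, adjusted p = 0.000144), 4.50 ± 1.01 (SE, adjusted p = 0.0382) and 5.13 ± 1.23 (SE, adjusted p = 0.023). Leaving out p53 tumour 1 or 2 or either β-catenin tumour ended the lucOS call of set 1 (adjusted p up to 0.163), and leaving out p53 tumour 3 or β-catenin tumour 3 ended that of set 2 (up to 0.0761).

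Cyp4a14 (chr4:115486200-115496142, minus strand, mm10), its neighbour, was also high in β-catenin tumours. It had 5.43, 7.94 and 58.4 in luc p53, 24.1, 421 and 1759 in lucOS p53, 7267, 10589.7, 19294 and 14596 in luc β-catenin and 8873 and 9545 in lucOS β-catenin tumours of set 1. Its values in set 2 were 0, 2.76, 7.96 and 74.9 in lucOS p53, 1893, 3993 and 207 in luc β-catenin and 164, 369 and 578 in lucOS β-catenin tumours. No p53 tumour reached the lowest β-catenin tumour of its set. The differences were 9.65 ± 1.18 (SE, adjusted p = 0.000917), 5.12 ± 1.41 (SE, adjusted p = 0.0636) and 5.53 ± 1.40 (SE, adjusted p = 0.0273), the middle one not called. The set 2 call was lost with edgeR and without p53 tumour 1, 2 or 3 or β-catenin tumour 2 or 3 (adjusted p up to 0.0859). Cyp4a12a, known as a male-predominant enzyme, had low values in nearly all tumours, with 365 in lucOS β-catenin tumour 1 of set 1 and 372 in lucOS p53 tumour 3 of set 2 as the highest, and was not called (1.95 ± 1.10 (SE), 3.27 ± 1.31 (SE) and -1.33 ± 1.79 (SE)). Near-identical Cyp4a copies can share reads.

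The other PPARα targets have roles outside β-oxidation. Plin2, a coat protein of lipid droplets, had 1443, 4227 and 3842 in luc p53 and 3372, 5873 and 5924 in lucOS p53 tumours of set 1. The β-catenin tumours of that set had 11037, 13502, 19624 and 15068 with luc and 21129 and 24779 with lucOS. Set 2 showed 1729, 5519, 3146 and 6713 in lucOS p53, 17410.5, 15818 and 13562 in luc β-catenin and 10569, 5556 and 11405 in lucOS β-catenin tumours, and p53 tumour 4 lay above lucOS β-catenin tumour 2. Its differences were 2.34 ± 0.36 (SE, adjusted p = 0.00322), 2.22 ± 0.43 (SE, adjusted p = 0.0254) and 1.22 ± 0.43 (SE, adjusted p = 0.0791), so it was called in set 1. The lucOS call was lost without p53 tumour 1 or either β-catenin tumour (adjusted p up to 0.13).

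Among luc tumours, Vnn1, a pantetheinase that recycles the vitamin part of CoA, was called higher by 3.91 ± 0.62 (SE, adjusted p = 0.00379), and its call held in all 7 fits that left out a tumour. Pdk4, which shuts pyruvate out of the mitochondrion's oxidation, was called by 2.57 ± 0.54 (SE, adjusted p = 0.0129), and Bdh1, which makes the ketone body β-hydroxybutyrate, by 2.27 ± 0.54 (SE, adjusted p = 0.02). Fabp1, the fatty acid carrier of the cytosol, was called by 1.77 ± 0.45 (SE, adjusted p = 0.0269), and Angptl4, a secreted inhibitor of lipoprotein lipase, by 1.63 ± 0.43 (SE, adjusted p = 0.0304). Leaving out a tumour ended the call in 1 of 7 fits for Pdk4 (adjusted p up to 0.0581), 3 of 7 for Bdh1 (up to 0.0584), 4 of 7 for Fabp1 (up to 0.0829) and 4 of 7 for Angptl4 (up to 0.115). None of these 5 was called in a lucOS comparison. In set 2 the differences were 2.51, 2.52, 0.79, -0.04 and 0.04 in the same order, and Fabp1 turned to 0.11 with TMM. Fgf21, the fasting hormone, and Creb3l3, a transcription factor that works with PPARα, were not called in any comparison, with 1.55, 0.77 and -0.61 and with 1.05, 0.80 and 0.22.

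**Figure D3:**
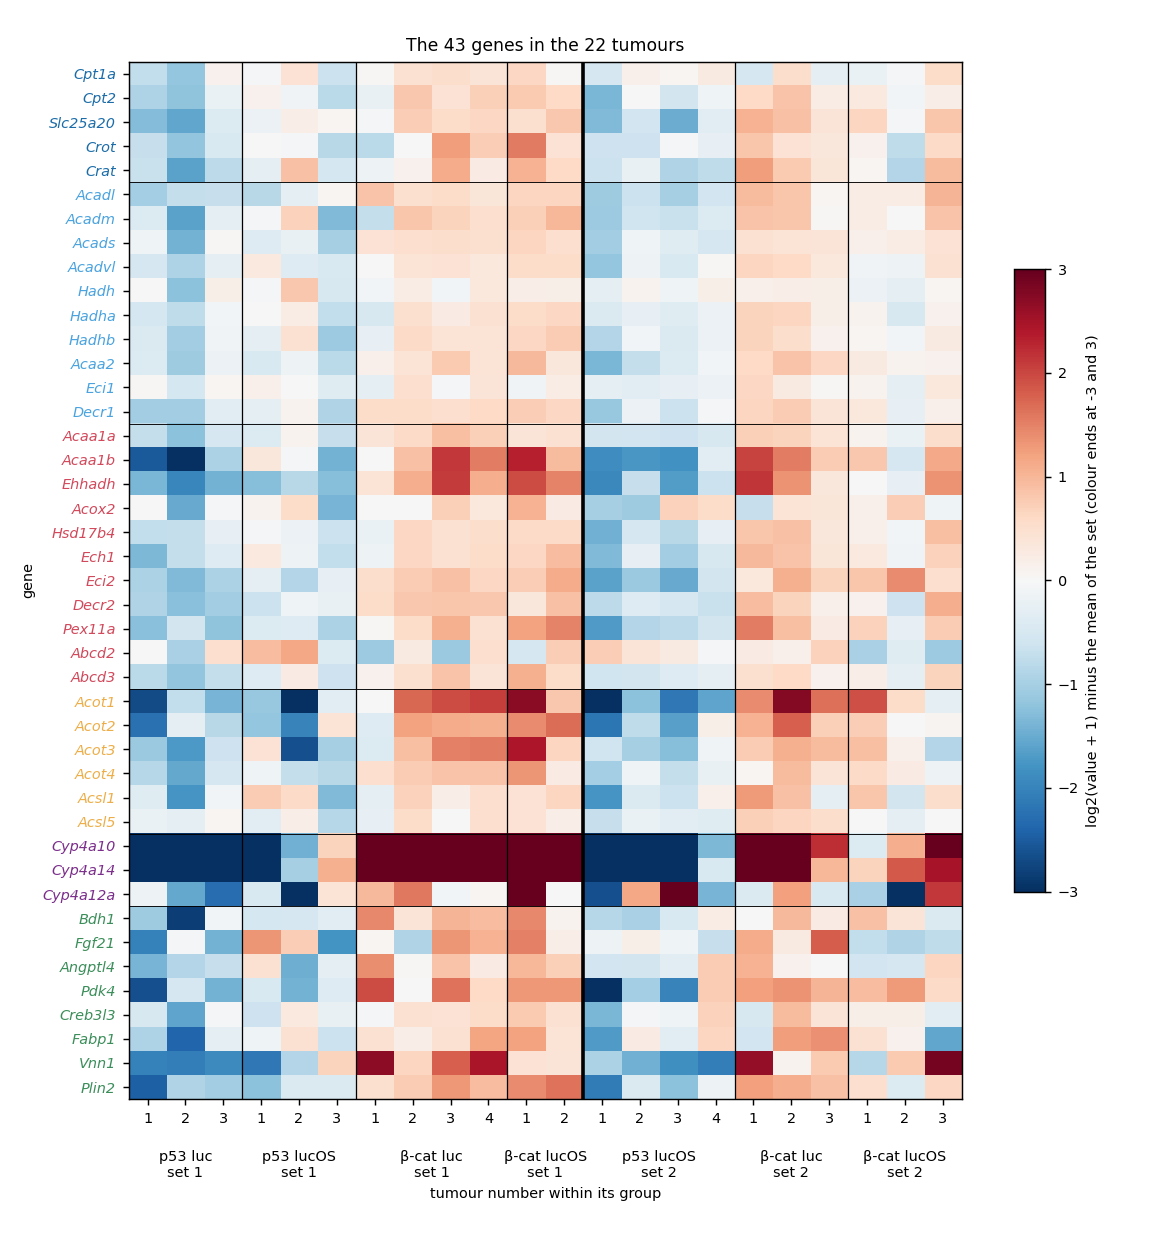
The 43 genes (rows, coloured by role as in the plot of driver differences) in the 22 tumours (columns, numbered within their group), coloured by log2(value + 1) minus the mean of the gene over the tumours of its set. The p53 tumours are mostly blue and the β-catenin tumours mostly red, Abcd2, Cyp4a12a and Fgf21 depart from this, and within a group single tumours are high or low for many genes together.

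Within groups the genes tended to be high or low in the same tumour. In set 1, luc p53 tumour 3 was the highest of 3 for 32 of the 43 genes and tumour 2 the lowest for 29, where 28.6% and 35% of all genes had that tumour as highest and as lowest. Luc β-catenin tumour 1 was the lowest of 4 for 32 genes (31.3% of all genes). In set 2, p53 tumour 1 was the lowest of 4 for 33 genes (30.4%) and p53 tumour 4, the one named JAX, the highest for 28 (26.1%). Among lucOS β-catenin tumours of set 2, tumour 2 was the lowest for 27 (32.7%) and tumour 3 the highest for 26 (35.3%).

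Ppara itself, the receptor gene, was not called in any comparison. Its values were 6458, 3511 and 5909.8 in luc p53, 14041, 15219 and 5357 in lucOS p53, 12201, 7464, 8531 and 7679 in luc β-catenin and 9479 and 6301 in lucOS β-catenin tumours of set 1. In set 2 they were 3164, 5682, 5909.9 and 7549.6 in lucOS p53, 11342, 6785 and 4331 in luc β-catenin and 5638, 4062 and 8600.4 in lucOS β-catenin tumours. Of the driver comparisons only luc in set 1 was free of overlap, and the differences were 0.78 ± 0.37 (SE, adjusted p = 0.164), -0.44 ± 0.44 (SE, adjusted p = 0.587) and 0.13 ± 0.39 (SE, adjusted p = 0.841). Ppargc1a, a coactivator of the receptor, was not called either (-0.58 ± 0.71 (SE), -1.37 ± 0.85 (SE) and -0.16 ± 0.30 (SE)). Of 15 genes for PPARs, their partners and coregulators, 3 were called higher and 1 lower among luc tumours, 0 and 1 among lucOS tumours of set 1, and 1 and 0 in set 2, with medians of -0.29, -0.44 and -0.16. For this list and those of other pathway genes below, the shares of all genes were again 5.93%, 1.62% and 6.08% called higher and 9.16%, 2.59% and 10.9% called lower in the 3 comparisons.

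Of 33 other genes of fatty acid oxidation, electron transfer and ketone handling, 10, 4 and 8 were called higher and 2, 1 and 4 lower in the 3 comparisons, with medians of 0.36, 0.45 and 0.49. The lower ones included Oxct1, which lets tissues use ketone bodies (-4.07 ± 0.64 (SE, adjusted p = 0.00352) for luc and -2.92 ± 0.67 (SE, adjusted p = 0.0198) in set 2, the latter lost in 4 of 7 fits that left out a tumour), and Bdh2 (-5.47 ± 0.85 (SE, adjusted p = 0.00322) and -3.18 ± 0.59 (SE, adjusted p = 0.00956)). Acsl4, an acyl-CoA synthetase that prefers arachidonic acid, was called higher in all 3 (2.21, 2.09 and 2.36, adjusted p = 0.00496, 0.032 and 0.0116), with the lucOS call of set 1 lost in 4 of 5 such fits (up to 0.136).

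Fatty acid uptake, release and storage are neighbouring steps. Of 22 such genes tested, 9, 2 and 5 were called higher and 0, 0 and 1 lower, with medians of 0.78, 1.0 and 0.78. Cd36, a fatty acid uptake receptor, had differences of 3.51 ± 0.79 (SE, adjusted p = 0.0162), 3.40 ± 0.94 (SE, adjusted p = 0.0642) and 2.87 ± 0.47 (SE, adjusted p = 0.00686), and Slc27a5, a bile acid and fatty acid CoA ligase of liver, of 2.09 ± 0.64 (SE, adjusted p = 0.0488), 1.90 ± 0.76 (SE, adjusted p = 0.159) and 3.36 ± 0.73 (SE, adjusted p = 0.0166). Cidec, which helps lipid droplets to grow and also stands on the fat cell marker list, was called in all 3 (2.12, 2.81 and 2.18, adjusted p = 0.0291, 0.0439 and 0.0393). Leaving out a tumour ended the calls of Cidec in 5 of 7, 5 of 5 and 5 of 7 fits (adjusted p up to 0.104, 0.153 and 0.121). It ended the luc call of Cd36 in 1 of 7 (up to 0.067) and the calls of Slc27a5 in 7 of 7 (luc) and 1 of 7 (set 2). Of 34 other peroxisome genes, 14, 3 and 10 were called higher and 1, 0 and 2 lower, among them Acnat2, a peroxisomal acyltransferase (2.61 ± 0.62 (SE, adjusted p = 0.0201) and 3.34 ± 0.74 (SE, adjusted p = 0.0365) in set 1, 3.12 ± 0.96 (SE, adjusted p = 0.0514) in set 2). Its set 1 calls were lost in 2 of 7 (luc) and 5 of 5 (lucOS) fits that left out a tumour. Of 12 other Cyp4 genes tested, 5, 2 and 3 were called higher and 0, 0 and 1 lower. Cyp4a31 and Cyp4a32, close copies of Cyp4a10, were called in both comparisons of set 1 (5.62 and 3.0, 5.50 and 3.51; the lucOS calls were lost in 4 and 3 of 5 fits that left out a tumour), and Cyp4f15 among luc tumours and in set 2 (3.60 and 6.10).

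The antigen comparisons asked whether lucOS went with another level of these genes at a fixed driver. By limma and by edgeR 0 of all genes tested were called in any of them or in the interaction of driver and antigen in set 1, so 0 members were. Among p53 tumours of set 1, 41 of the 43 genes lay above 0 with lucOS (49.9% of all genes), with a median of 0.50, and 9 members had an unadjusted p under 0.05 (4.48% of all genes). Without luc tumour 2 the median was 0.30 with 6 such members, and without lucOS tumour 2 it was 0.45 with 6. Without lucOS tumour 3 it was 0.64 with 14, and without luc tumour 3 it was 0.69 with 17. The 7 whose groups did not overlap, where 4.63% of all genes were separated in this direction, were Slc25a20, Ehhadh, Eci2, Decr2, Cyp4a10, Abcd3 and Crat. In the other direction 0 were separated (5.07% of all genes). Cyp4a10 differed by 4.56 ± 0.91 (SE) and Cyp4a14 by 4.14 ± 1.26 (SE) on the log2 scale (adjusted p = 0.952 for both in limma). DESeq2, the other count test, called both (0.0683% of all genes), with 4.74 (adjusted p = 0.00043) and 4.96 (0.00429), while edgeR gave adjusted p = 0.929. In the interaction, Cyp4a10 had -5.06 ± 1.32 (SE) (limma adjusted p = 1.0), and DESeq2 called it at -5.27 (adjusted p = 0.0368, with 0.107% of all genes called). The estimate was of like size in edgeR (-5.14), and DESeq2 was the one tool that called it.

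Among β-catenin tumours the antigen difference had opposite signs in the 2 sets. In set 1, 35 of the 43 genes lay above 0 with lucOS (50% of all genes), with a median of 0.25, and 1 member, Pex11a, had an unadjusted p under 0.05 (1.38% of all genes). The median fell to 0.089 without lucOS tumour 1 and was 0.17 without luc tumour 1, with 1 and 0 such members. Leaving out luc tumour 2 or luc tumour 3 gave 2 such members. All lucOS tumours of set 1 lay above all luc tumours for 7 members (3.40% of all genes), Acadvl, Hadha, Hadhb, Decr1, Acot2, Pex11a and Plin2. They lay below all luc tumours for Cyp4a10 and Vnn1 (2.95%). In set 2, 40 of 43 lay below 0, where 48.0% of all genes lay above 0, with a median of -0.44, and 5 members had an unadjusted p under 0.05 (1.84%), Abcd2 (-1.17 ± 0.25 (SE)), Acsl5 (-0.73 ± 0.16 (SE)), Fgf21 (-1.87 ± 0.45 (SE)), Hadha (-0.57 ± 0.21 (SE)) and Acaa1a (-0.44 ± 0.18 (SE)). On leaving out a tumour this median ran from -0.28 (without lucOS tumour 2, with 3 such members) to -0.64 (without lucOS tumour 3, with 12), and leaving out luc tumour 2 also gave 3. DESeq2 called Acsl5 in set 2 (log2 -0.72, adjusted p = 0.0486, with 0.0717% of all genes called). All lucOS tumours of set 2 lay below all luc tumours for 8 members (2.36% of all genes), Hadh, Hadha, Acaa2, Decr1, Acsl5, Abcd2, Fgf21 and Plin2, and above them for 0 (2.18%). In all, 33 members lay above 0 in set 1 and below 0 in set 2, as did 24.9% of 15378 genes kept in both sets. The difference between the sets was not tested, since the tables were scaled separately.

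**Figure D4:**
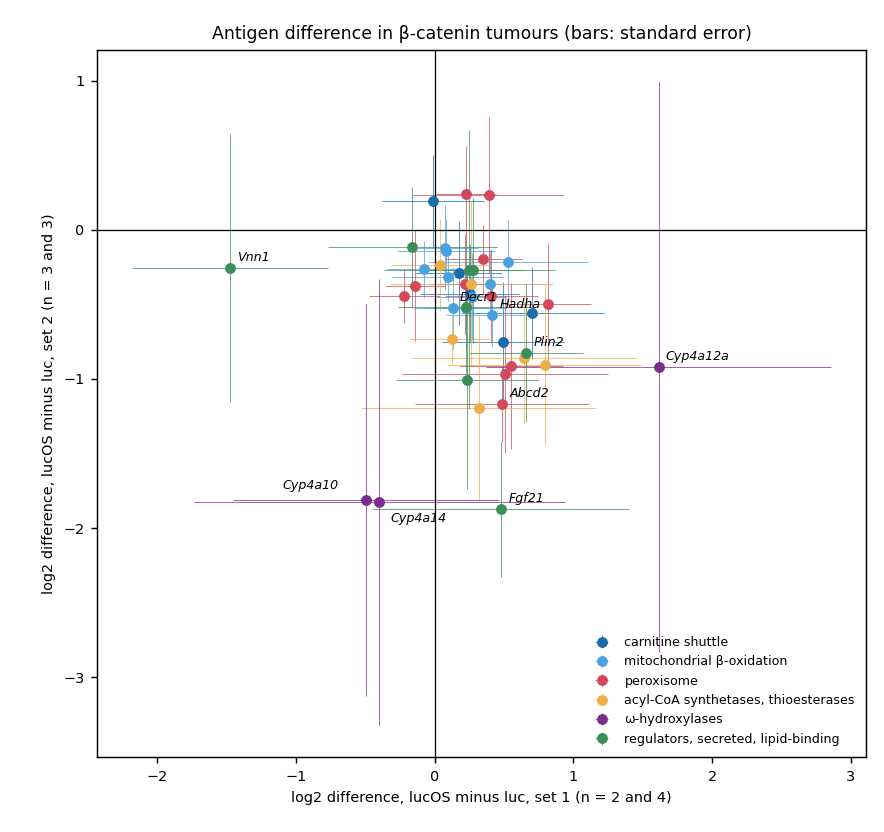
Log2 difference between lucOS and luc β-catenin tumours in set 1 (horizontal axis) and set 2 (vertical axis) for the 43 genes, with standard errors as bars and colours by role. Most points (33 of 43) lie to the right of 0 and below 0, and none of the genes was called by limma in either set.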

How the data were processed

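RNA of 22 liver tumours was sequenced, per the labels' protocols, from total RNA with a TruSeq kit, and no source used here says whether strand was kept. The submitters' processing notes list TopHat2, featureCounts and DESeq2 (no versions) and mm10. The deposited values are a normalized signal, whole read counts divided by 1 size factor per sample, read from 2 tables that were scaled separately, so every test stayed within a table. Where set 1 listed several transcripts of a gene, the one of highest mean was used. A gene was tested if it reached a value of 10 in 2 tumours of set 1 or in 3 of set 2. The model on log2(value + 1) used limma 3.58.1 (R 4.3.3) with a mean-variance trend, took in every group of the set and was adjusted by Benjamini-Hochberg over all tested genes. Means and SDs are of deposited values. Reads recovered from the tables served edgeR 4.0.16 and DESeq2 1.42.0 as alternatives. The fit was checked on simulated counts with known changes. In each simulation 50 genes were changed at each of 2-fold, 4-fold, 8-fold and 16-fold, drawn from genes with a mean above 50. Of 50 genes changed 2-fold, 12% (luc), 8% (lucOS, set 1) and 14% (lucOS, set 2) were called. At 4-fold it was 56%, 54% and 76%. Unchanged genes called numbered 5, 8 and 4. Fewer genes were changed in the simulations than the real fits called, so these rates need not hold for the real fits. A gene that was not called can still differ.

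The members, companion lists and markers were chosen with earlier results of these data known. Values in every tumour are printed for members called in at least 2 driver comparisons and for Cpt1a, Acadm, Ehhadh, Hsd17b4 and Ppara, and beyond that rule for Abcd2, chosen after its values were seen. Companion genes named are Ppargc1a and, of the others, the 10 with the largest mean difference among those called in at least 2 driver comparisons. Some companion genes are not reported here. Promoters came from RefSeq (GRCm38.p6) and gene positions from the GENCODE annotation of GRCm38, the assembly of mm10. Alternatives were another pseudocount (0.5 or 5), no filter, TMM or median scaling, the compared groups alone, the sum over transcripts (set 1), tumours named JAX alone (set 2), the count tests and leaving out each tumour.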

Additional observations from a re-analysis of the deposited data

Results flagged for a closer look

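Within groups of 4 tumours, 86 pairs of a gene and a group were checked for a tumour that stood apart from the other 3, by Dixon's ratio of the gap to the range, and 6 were found. The ratio was taken on deposited values, not on the log2 scale of the tests, so gaps at high values count for more. For independent groups of normally distributed values chance would give about 1 in 20. Deposited values need not be normal and these pairs share tumours, so that rate is no measure here. In luc β-catenin tumours of set 1, tumour 1 was lowest for Decr2 (3412, the others 4122 to 4200) and Acot2 (507, the others 1398 to 1532). In lucOS p53 tumours of set 2, tumour 4, the one named JAX, was highest for Acaa1b (8260.1, the others 2827 to 3086), Cyp4a14 (74.9, the others 0 to 7.96) and Angptl4 (4287, the others 1673 to 1980), and tumour 3 was highest for Cyp4a12a (372, the others 0.91 to 25.8).

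The antigen difference in β-catenin tumours ran in opposite directions in the 2 sets for Hadha, Decr1 and Plin2. All lucOS tumours lay above all luc tumours in set 1 and below all of them in set 2, where the log2 differences were -0.57 (Hadha), -0.53 (Decr1) and -0.83 (Plin2). Over all genes 3.40% were separated upward in set 1 and 2.36% downward in set 2, and the share doing both was not counted. Set 1 rests on 2 lucOS tumours. The difference between the sets was not tested, because the tables were scaled separately.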

How the results depend on the processing

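No paired analysis was run, because the labels used here name no pairing between tumours of different groups. Among luc tumours 15 to 28 members were called higher when 1 tumour was left out, beside 471 to 831 of all genes. The lucOS members called higher were 1 to 7 beside 29 to 368 (set 1) and 3 to 17 beside 447 to 871 (set 2). The lucOS count of set 1 was 1 in the fit of the 2 groups alone and 23 with DESeq2, and that of set 2 was 23 with DESeq2 and 0 higher and 0 lower among tumours named JAX. The mitochondrial median of lucOS was 0.61 to 1.12 (set 1) on leaving out a tumour and 0.22 (set 2) among tumours named JAX, and the peroxisomal median of set 2 was 1.09 with edgeR and with DESeq2. DESeq2 also called 2 members higher with antigen in p53 tumours, 1 lower with antigen in β-catenin tumours of set 2 and 1 lower in the interaction. The causes were not tested.

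Members that were not called could turn direction. Among luc tumours, leaving out a tumour gave Hadh -0.0069 to 0.69 and Abcd2 -0.61 to 0.13, and Abcd2 was 0.048 with edgeR and 0.040 with DESeq2. In lucOS set 1 it gave Hadh -0.19 to 0.46, Eci1 -0.036 to 0.30, Acsl1 -0.14 to 0.91, Fgf21 -0.18 to 1.42 and Abcd2 -1.05 to 0.19. In set 2 it gave Cpt1a -0.12 to 0.26, Angptl4 -0.36 to 0.35, Creb3l3 -0.17 to 0.52, Ppara -0.15 to 0.39, Fabp1 -0.51 to 0.58 and Cyp4a12a -2.80 to 0.15. Hadh of set 2 turned to 0.034 (TMM), 0.00048 (median scaling), 0.035 (edgeR) and 0.036 (DESeq2), and Fabp1 to 0.11 (TMM, edgeR and DESeq2) and 0.078 (median scaling). Among tumours named JAX, Cpt1a was at -0.18, Acox2 at -0.30, Angptl4 at -0.91, Creb3l3 at -0.68 and Ppara at -0.38. Read depth limits chiefly Cyp4a10, Cyp4a14 and Cyp4a12a. They had values under 10 in 2, 2 and 3 of 12 tumours of set 1 and in 3, 3 and 6 of 10 of set 2. For Cyp4a10 and Cyp4a14 all of these were p53 tumours. Fgf21 was also low in set 2, at 16.6 to 31.3 in p53 and 14.1 to 99.7 in β-catenin tumours.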
